A study of Petrolisthes cinctipes with 164 samples.

Results

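The 3 probes described here, Pc28Gi17, Pc33Hm03 and Pc34Hg17, were chosen from a porcelain crab cDNA array because their expression differential between heat stressed and control crabs was largest 12 and 18 h into recovery. The differential of a probe is the log2 intensity of a heat stressed crab minus that of the control crab with the same time point and replicate number, averaged over the 2 arrays on which both crabs were measured. For each probe 3 window means were formed over pairs of crabs, E over the 9 pairs at 1 and 2 h, M over the 10 pairs at 12 and 18 h and L over the 10 pairs at 24 and 30 h. A probe was taken when M was the largest of these means and at least 0.4, and when E and L were each under 0.5 times M and above -0.25. Up to 60 probes were to be taken, and 3 of 13818 probes met the limits, so all 3 are described. E, M and L of these probes are what chose them and are given without a test.

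Crabs of the intertidal species Petrolisthes cinctipes were either ramped from 11 to 30 °C over 4 h (heat stressed) or kept at 11 °C for the same 4 h (control), and all of them then recovered at 11 °C. RNA of 41 heat stressed and 41 control crabs was collected after 0.5, 1, 2, 4, 6, 12, 18, 24 and 30 h of recovery, with 5, 4, 5, 3, 4, 5, 5, 5 and 5 crabs per treatment. A heat stressed and a control crab were hybridised together on 2 arrays, named a and b, which differed in which crab carried Cy5 and which Cy3, and each of the 164 deposited samples is 1 channel of 1 array. The sources used here name no tissue, and p-values measure only the spread between these crabs.

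After a heat pulse, animal cells are known to make chaperones that hold and refold damaged proteins, and the transcripts of these heat shock genes usually climb early and decline as folding recovers. Transcripts that change hours later can belong to other processes of recovery, such as protein turnover, metabolism or growth. On a cDNA array, a spotted clone binds labelled copies of its own transcript and of close relatives, so that a probe reports the abundance of a transcript or of a small family. The probes carry only plate positions as names in the files, and with no gene name to go by, none is given here and no function is assigned to any of the 3.

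The channel medians lay between 6.77 and 9.17, with a typical gap of 0.0177 (median over arrays) between the medians of the Cy5 and Cy3 channels. No value was missing, and precision is limited by the 3 to 5 pairs of crabs at each time point. The titles and the descriptions of the samples gave different treatments or times for 8 pairs, and the titles were used. In 4 h replicate 2 and 6 h replicates 3 and 4 the treatments were opposite in all channels. In replicate 5 at 12, 18, 24 and 30 h they were opposite in the 2 channels of array b. The remaining conflict, in 4 h replicate 3, and a further one in 18 h replicate 5 concerned the time point in 1 channel.

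Probes whose window mean was high mainly at 12 and 18 h were scarce. M reached 0.4 in 87 of 13818 probes, and in 69 of these both E and L were at least 0.5 times M. In 7 more only E was that large and in 8 only L, which left the 3 members. The median E, M and L were 0.0097, 0.43 and 0.13 over the 3 members, against 1.07, 0.92 and 0.80 over the 84 other probes with M of at least 0.4 and -0.0031, 0.010 and 0.015 over all probes. The members were therefore among the smaller of the differentials at 12 and 18 h, ranking 74, 80 and 87 among these 87 probes in M. At any M above 0, 2122 probes met the limits on shape, of which 59 had M of at least 0.2 and 17 of at least 0.3.

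**Figure D1:**
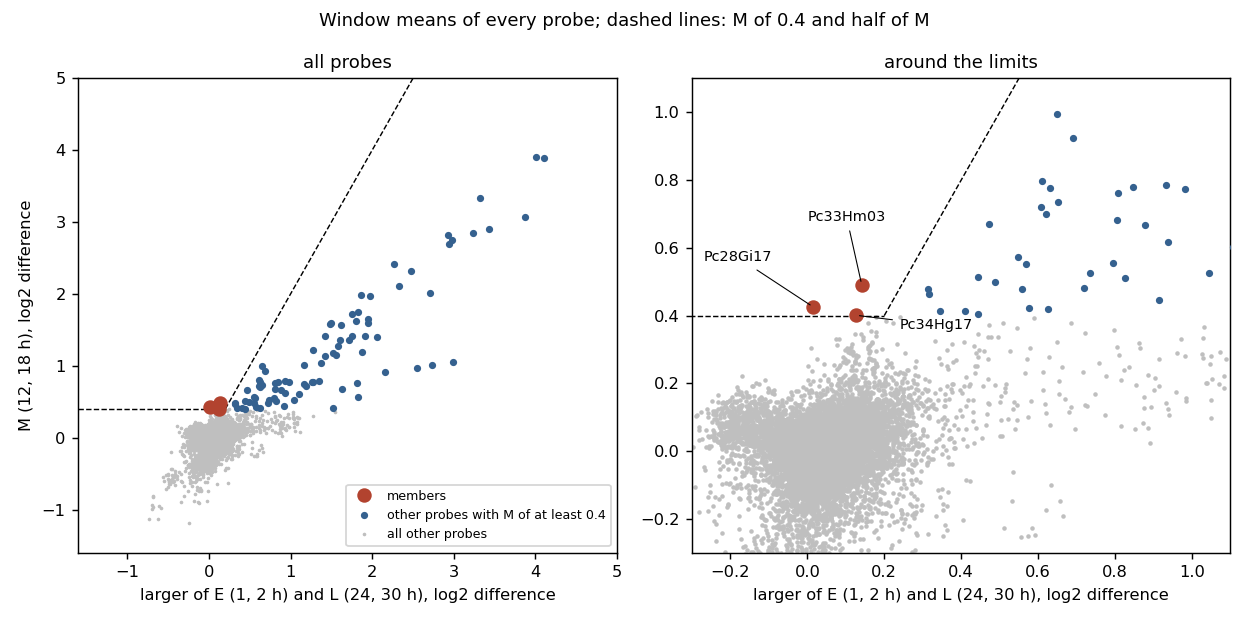
Window mean M at 12 and 18 h (vertical axis, log2 difference of heat stressed minus control) against the larger of E at 1 and 2 h and L at 24 and 30 h (horizontal axis, log2 difference) for all 13818 probes on the left and around the limits on the right, where 1 point is 1 probe. The 3 members in red lay at M of 0.43, 0.49 and 0.40, close to the dashed limits, while the other 84 probes with M of at least 0.4 lay to the right of the dashed line at 0.5 times M.

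The members lay close to the limit on M. Pc34Hg17 had M of 0.40 and was the last probe above the limit, whereas Pc14Hi19, Pc28Gg03 and Pc17Pg05 met all other limits with M of 0.39, 0.38 and 0.35. The probes next outside the limit on shape were Pc03Ng12 with E, M and L of 0.60, 0.99 and 0.65, Pc14Ha17 with 0.15, 0.48 and 0.31, and Pc08Ho01 with 0.14, 0.46 and 0.32. The larger of E and L was 3.58, 28.8 and 31.5% of M in Pc28Gi17, Pc33Hm03 and Pc34Hg17, against 65.2% in Pc03Ng12. All 3 members thus lay inside the limit on shape, with M between 0.40 and 0.49.

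Pc28Gi17 was the probe with the largest margin of M over the other windows, at 0.41. Its E was 0.0097 with an SD of 0.47 over 9 pairs, its M 0.43 with an SD of 0.35 over 10 pairs and its L 0.015 with an SD of 0.56 over 10 pairs. At 12 h its log2 intensity was 9.54, 9.31, 9.01, 9.07 and 10.16 in the heat stressed crabs of replicates 1 to 5, against 8.74, 9.09, 8.80, 8.89 and 9.19 in the control crabs. The heat stressed crab was the higher of its pair in 5 of 5, by 0.79, 0.22, 0.20, 0.18 and 0.97, although the levels of both groups overlapped. At 18 h the intensity was 9.45, 9.71, 9.53, 9.32 and 8.86 in heat stressed crabs, against 9.52, 9.14, 8.84, 8.69 and 8.80 in control crabs. The differentials at 18 h were -0.07, 0.57, 0.69, 0.63 and 0.06, so that replicates 2, 3 and 4 were high and replicates 1 and 5 were near 0.

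Outside that window Pc28Gi17, with both arrays averaged, varied around 0 without a shared direction. Its differentials were 0.19, -0.26, 0.11 and -0.25 at 1 h and 0.76, -0.12, 0.67, -0.34 and -0.67 at 2 h. They were 0.23, -0.16, 0.20, 0.19 and -0.75 at 24 h and 0.56, 0.60, -0.07, 0.46 and -1.11 at 30 h. On arrays a and b taken alone the means were -1.20 and 1.09 at 24 h and -0.69 and 0.87 at 30 h. Both late time points had replicate 5 as the lowest pair, and 3 of 5 pairs at each were above 0. Array b of replicate 5 carries conflicting treatments at 12, 18, 24 and 30 h, and without the pairs of conflicting labels L of Pc28Gi17 was 0.25 beside M of 0.40, so that it no longer met the limit on L. At 0.5 h the differentials were 0.02, -0.45, 0.06, 0.14 and 0.54, and at 4 h they were 0.19, 0.08 and -0.08. Its widest spread fell at 6 h, where replicates 1 to 4 gave 0.38, -1.01, -0.62 and 1.39. The 6 h values of replicates 3 and 4 came from pairs whose titles and descriptions gave opposite treatments.

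Pc33Hm03 had the highest M of the members, 0.49 with an SD of 0.45, next to an E of 0.091 with an SD of 0.65 and an L of 0.14 with an SD of 0.43. At 12 h its log2 intensity was 11.76, 10.87, 10.95, 10.56 and 11.03 in heat stressed crabs, against 10.48, 10.89, 10.26, 9.72 and 10.49 in control crabs. The differentials at 12 h were 1.28, -0.02, 0.69, 0.84 and 0.54, so replicate 1 was the highest and replicate 2 was near 0. At 18 h the intensity was 10.78, 10.74, 10.99, 10.56 and 11.01 in heat stressed crabs, against 9.95, 10.89, 10.80, 9.98 and 10.88 in control crabs. The differentials at 18 h were 0.83, -0.15, 0.19, 0.58 and 0.13. The heat stressed crabs of 18 h were close together, at 10.82 ± 0.19 (SD, n = 5), while the control crabs were at 10.50 ± 0.49 and held both the lowest levels, of replicates 1 and 4, and levels as high as those of the heat stressed crabs.

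In the remaining time points Pc33Hm03 had single pairs with differentials as large as those at 12 h. It gave 0.12, -0.74, -0.60 and 0.39 at 1 h and 1.39, 0.51, 0.08, -0.43 and 0.09 at 2 h. Replicate 1 at 2 h was the highest pair of this probe over all time points. The later pairs gave 0.02, -0.20, -0.01, 0.53 and 0.56 at 24 h and 0.0015, -0.53, -0.04, 0.13 and 0.96 at 30 h. At 0.5 h the differentials were -0.15, 0.03, 0.26, -0.15 and 0.16, the narrowest range of this probe. They were -0.28, 0.73 and -0.05 at 4 h and -0.16, -0.24, 0.48 and 0.10 at 6 h.

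Pc34Hg17 was the brightest member, with E, M and L of -0.042, 0.40 and 0.13 and SDs of 0.60, 0.39 and 0.47. At 12 h its log2 intensity was 12.68, 12.27, 12.26, 12.09 and 12.42 in heat stressed crabs, against 12.32, 12.18, 11.38, 11.21 and 11.61 in control crabs. The differentials were 0.36, 0.09, 0.88, 0.88 and 0.81, above 0 in 5 of 5 pairs. Heat stressed crabs were close together at 12.35 ± 0.22, whereas control crabs were at 11.74 ± 0.49 and fell into replicates 1 and 2, near the heat stressed level, and replicates 3, 4 and 5 below it. At 18 h the intensity was 12.35, 12.06, 12.26, 12.35 and 11.74 in heat stressed crabs, against 11.83, 12.09, 12.19, 11.79 and 11.88 in control crabs. The differentials were 0.53, -0.03, 0.07, 0.56 and -0.14, so that 2 of 5 pairs carried the mean at 18 h.

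The earlier and later values of Pc34Hg17 were as wide as those of Pc33Hm03. At 1 h they were -0.13, -0.95, -0.68 and 0.37, and at 2 h 0.78, 0.04, -0.33, -0.26 and 0.78. At 24 h they were -0.01, -0.21, 0.02, 0.59 and 0.56, and at 30 h -0.29, -0.40, -0.0030, -0.08 and 1.07. Replicate 5 at 30 h was the highest pair of this probe, and the other pairs at 30 h were at or below 0. At 0.5 h the differentials were 0.12, 0.23, -0.31, -0.17 and 0.06. They were -0.84, 0.02 and 0.08 at 4 h and 0.15, 0.20, 0.58 and -0.26 at 6 h.

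**Figure D2:**
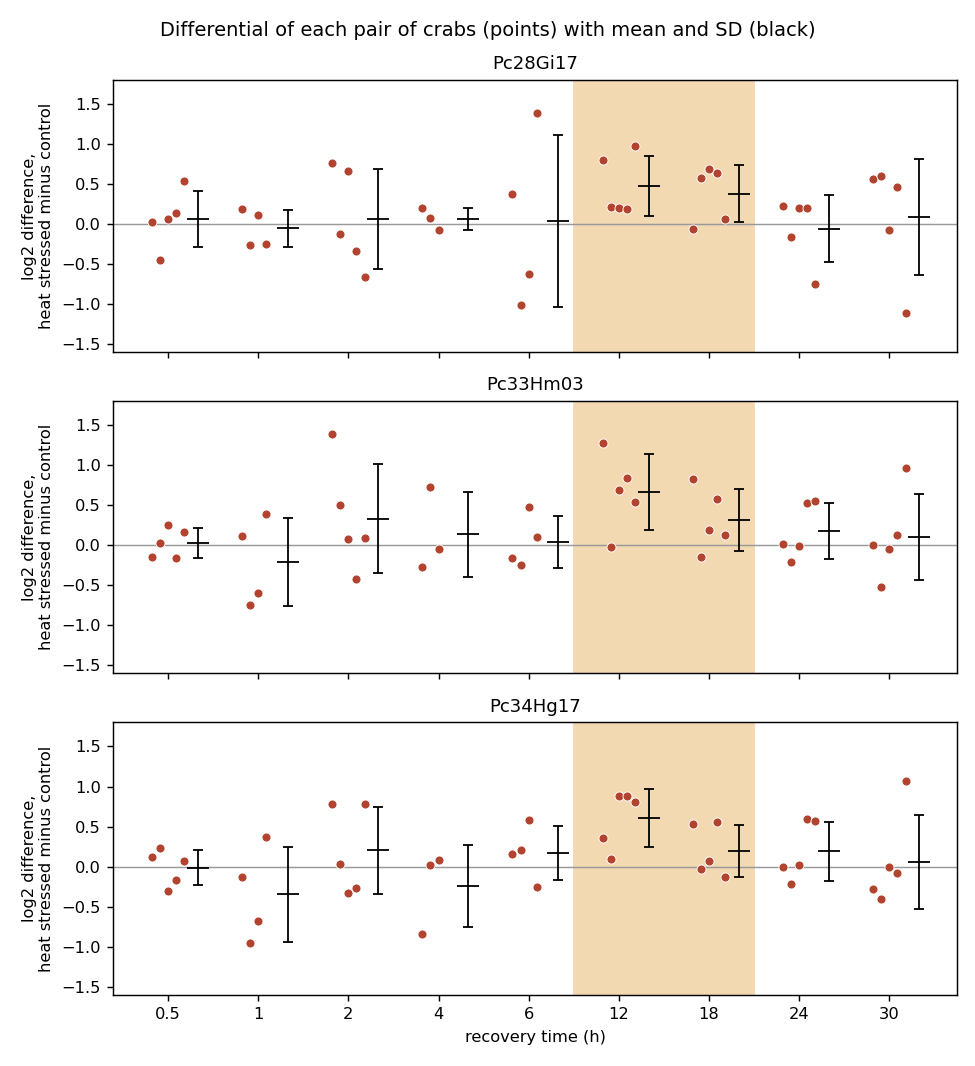
Differential of heat stressed minus control (log2) of the 3 members against hours of recovery (evenly spaced time points, 12 and 18 h shaded), with 1 point for each of the 41 pairs and the mean and SD of each time point. All 3 means were highest at 12 h (0.47, 0.67 and 0.60), and at every other time point the pairs of each member lay on both sides of 0.

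The mean differential was highest at 12 h in each of the 3 members. For Pc28Gi17 it was 0.06 ± 0.35, -0.05 ± 0.23, 0.06 ± 0.63, 0.06 ± 0.14, 0.03 ± 1.07, 0.47 ± 0.38, 0.38 ± 0.35, -0.06 ± 0.42 and 0.09 ± 0.72 after 0.5, 1, 2, 4, 6, 12, 18, 24 and 30 h (SD over the pairs of each time point). For Pc33Hm03 the same means were 0.03 ± 0.18, -0.21 ± 0.55, 0.33 ± 0.68, 0.14 ± 0.53, 0.04 ± 0.32, 0.67 ± 0.47, 0.32 ± 0.39, 0.18 ± 0.35 and 0.11 ± 0.54. For Pc34Hg17 they were -0.01 ± 0.22, -0.35 ± 0.59, 0.20 ± 0.55, -0.24 ± 0.51, 0.17 ± 0.34, 0.60 ± 0.36, 0.20 ± 0.32, 0.19 ± 0.37 and 0.06 ± 0.59. When the time points were put in order of their means, no neighbours in the order differed by more than the larger of their SDs in any member. The time point after 12 h in this order was 18 h for Pc28Gi17 but 2 h for Pc33Hm03 and Pc34Hg17, although E, the mean of 1 and 2 h, was near 0 in both, since their means at 1 h were below 0. Pairs above 0 numbered 5, 4 and 5 of 5 at 12 h and 4, 4 and 3 of 5 at 18 h in Pc28Gi17, Pc33Hm03 and Pc34Hg17, time points that the choice used. The levels of heat stressed and control crabs overlapped at each of the 9 time points in each member.

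With both arrays averaged, none of the members passed limma's test (pair as block, Benjamini-Hochberg over all 13818 probes) at the time points that chose them. At 12 h, where 0.0507% of all probes were called, 0 of 3 members were called, with adjusted p of 1.00, 0.42 and 0.51 for Pc28Gi17, Pc33Hm03 and Pc34Hg17, and Pc33Hm03 and Pc34Hg17 had unadjusted p of 0.0021 and 0.0030. At 18 h, where 0.579% of all probes were called, 0 of 3 members were called, with adjusted p of 0.81, 0.81 and 0.96 in limma. Without the replicate block limma called 0 of 3 at 12 h (0.0579% of all probes) and at 18 h (0.188%). On array b alone Pc28Gi17 was called at 18 h (0.86, adjusted p of 0.034 in limma), where 7.82% of all probes were called, while on array a alone 0 of 3 members were (1.32% of all probes) and Pc28Gi17 had -0.10 with an adjusted p of 0.95. Likewise 0 of 3 members were called at 1 h (0.666% of all probes), 2 h (0.427%), 24 h (0.608%) and 30 h (1.61%). These contrasts were used in the choice, so the counts describe the members and nothing is read from them.

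The time points at 0.5, 4 and 6 h took no part in the choice and came from other crabs and other arrays. At 0.5 h limma gave differences of 0.06 with a standard error of 0.24 for Pc28Gi17, 0.03 with 0.20 for Pc33Hm03 and -0.01 with 0.19 for Pc34Hg17. The differences and standard errors were 0.06 and 0.30, 0.14 and 0.26, and -0.24 and 0.24 at 4 h. They were 0.03 and 0.26, 0.04 and 0.22, and 0.17 and 0.21 at 6 h. Each of these 9 differences was smaller than its standard error, and 0 of 3 members were called at each of the 3 time points, with all adjusted p in limma at 1.00 to 3 digits. Over all probes 0% were called at 0.5, 4 and 6 h, while 487, 332 and 672 of 13818 had an unadjusted p under 0.05, none of them a member. Without the replicate block limma also called 0, with unadjusted p under 0.05 in 19, 1 and 24 probes. The median differential over the 3 members was 0.029, 0.063 and 0.043 at 0.5, 4 and 6 h, against 0.0099, -0.0069 and 0.0065 over all probes. The values of Pc28Gi17 and Pc33Hm03 at 6 h, and that of Pc33Hm03 at 4 h, turned negative when the pairs with conflicting labels were left out or relabelled, to between -0.35 and -0.20.

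The 7 pairs at 4 and 6 h lie between the early and the late window. Averaged over these time points, limma's differences were 0.05 with a standard error of 0.20 for Pc28Gi17, 0.09 with 0.17 for Pc33Hm03 and -0.04 with 0.16 for Pc34Hg17, and 0 of 3 members were called (0% of all probes, with 378 of 13818 at an unadjusted p under 0.05). A rise before 12 h was therefore not detectable in these members, with few pairs and standard errors of that size.

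Since only the mean of 12 and 18 h was used in the choice, the difference between them could be tested. The differential at 18 h minus that at 12 h was -0.10 with a standard error of 0.33 in Pc28Gi17, -0.35 with 0.28 in Pc33Hm03 and -0.41 with 0.27 in Pc34Hg17. The sign in Pc28Gi17 reversed on array b alone and without the pairs of conflicting labels. No member passed (adjusted p of 1.00 in limma for each, unadjusted p of 0.78, 0.23 and 0.14), and 0% of all probes were called, with 478 at an unadjusted p under 0.05. No change between 12 and 18 h was thus detected, which does not show that the levels at both times were alike. In Pc34Hg17 the difference exceeded in size the SDs over pairs at 12 and 18 h, 0.36 and 0.32. In Pc28Gi17 and Pc33Hm03 it did not.

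**Figure D3:**
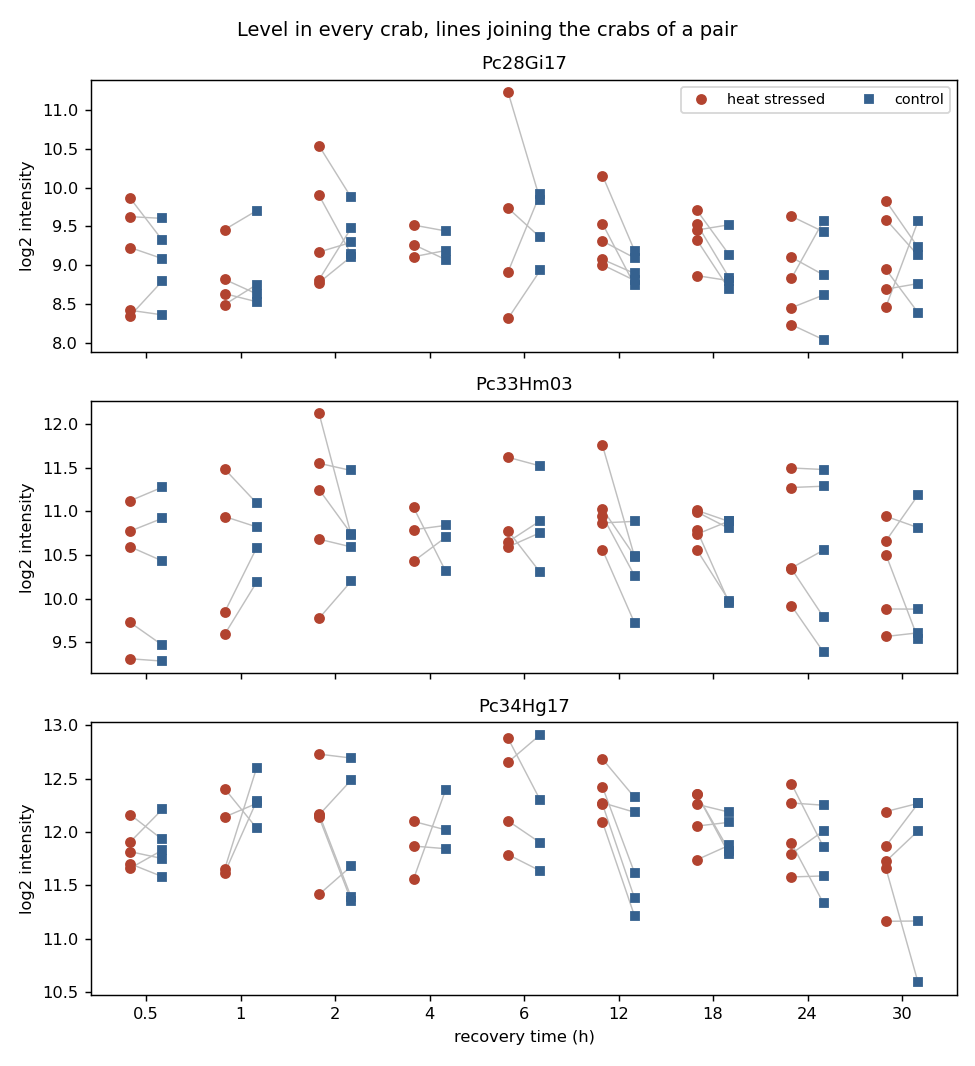
Log2 intensity of every crab for the 3 members against hours of recovery, heat stressed crabs drawn left of control crabs at each time point. Heat stressed and control crabs overlapped at every time point, and at 12 h the heat stressed crabs of Pc34Hg17 lay between 12.09 and 12.68 while 3 of 5 control crabs lay between 11.21 and 11.61.

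The differential joins changes in both treatments, so the level in each was also followed relative to the median of its channel. By this measure the means of Pc28Gi17 at 0.5, 1, 2, 4, 6, 12, 18, 24 and 30 h were 1.14, 1.01, 1.30, 1.86, 1.73, 1.69, 1.76, 1.17 and 1.58 in heat stressed crabs, against 1.08, 1.06, 1.25, 1.78, 1.70, 1.23, 1.38, 1.22 and 1.50 in control crabs. Those of Pc33Hm03 were 2.35, 2.63, 2.94, 3.32, 3.09, 3.31, 3.20, 3.00 and 2.78 in heat stressed crabs, against 2.32, 2.83, 2.62, 3.17, 3.06, 2.65, 2.88, 2.81 and 2.69 in control crabs. Those of Pc34Hg17 were 3.89, 4.12, 3.98, 4.41, 4.53, 4.62, 4.54, 4.32 and 4.19 in heat stressed crabs, against 3.91, 4.46, 3.80, 4.64, 4.37, 4.03, 4.34, 4.12 and 4.14 in control crabs. The heat stressed mean at 12 h lay above those at 0.5, 1 and 2 h in each member, but not above those at 4 and 6 h in each. It was below both in Pc28Gi17 (1.69 against 1.86 and 1.73) and above both in Pc34Hg17 (4.62 against 4.41 and 4.53). In Pc33Hm03 it was level with 4 h (3.31 against 3.32) and above 6 h (3.09). The control mean at 12 h lay below those at 4 and 6 h in each member and within the range of those at 0.5, 1 and 2 h. At 4 h there were 3 crabs per treatment, and titles and descriptions gave opposite treatments for 1 of these pairs. At 6 h they did so for replicates 3 and 4. These comparisons across time run between arrays and were not tested. In whole-animal or tissue RNA, fewer cells that express a transcript and less transcript per cell cannot be told apart.

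All 3 members were brighter than most probes, and their differentials varied more between pairs. Their mean log2 intensities over all channels were 9.15 (Pc28Gi17), 10.61 (Pc33Hm03) and 11.98 (Pc34Hg17), the 76.5th, 86.9th and 93.4th percentile of all probes, whose median was 7.78. The SD of their differentials within a time point was 0.55, 0.46 and 0.44, at the 93.8th, 88.9th and 86.5th percentile, against 0.23 in the median probe. The limit of 0.4 on M favours probes whose differentials vary widely, so these SDs only describe the members. Levels of different probes depend on their clones and are set side by side only to place the members within the array's range.

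The 2 arrays of a pair gave a repeat of each differential with the dyes exchanged, the heat stressed crab carrying Cy5 on array a in all but 1 pair, at 4 h. Over the 41 pairs the differentials of array a and array b correlated with r of 0.51 in Pc34Hg17, 0.44 in Pc33Hm03 and -0.037 in Pc28Gi17, against a median of 0.18 over all probes. The means of the time points were left in for these r. In Pc28Gi17 the arrays followed each other at 6 h, with 0.41, -1.11, -0.41 and 1.41 on array a and 0.35, -0.90, -0.83 and 1.36 on array b. Their means at 24 h were opposite, at -1.20 and 1.09. Both arrays had the same sign in 28, 29 and 20 of 41 pairs of Pc34Hg17, Pc33Hm03 and Pc28Gi17, against 22 in the median probe. The choice used the 10 pairs at 12 and 18 h, so the counts there describe the members and nothing is read from them. In these pairs both arrays were above 0 in 7 pairs of Pc34Hg17, 8 of Pc33Hm03 and 6 of Pc28Gi17. The differential of Pc34Hg17 at 12 h was above 0 on both arrays in 5 of 5 pairs.

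M, averaged over both arrays, was used in the choice, which favours values above 0 on each array alone. It was 0.43 on array a and 0.37 on array b in Pc34Hg17, 0.63 and 0.35 in Pc33Hm03, and 0.21 and 0.64 in Pc28Gi17. In Pc33Hm03 the highest pair at 12 h, replicate 1, rested mainly on array a, with 2.23 there and 0.33 on array b. E was -0.23 and 0.15 in Pc34Hg17, 0.025 and 0.16 in Pc33Hm03, and 0.0058 and 0.014 in Pc28Gi17 on arrays a and b. L was 0.32 and -0.064, 0.18 and 0.11, and -0.95 and 0.98 in the same order.

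The low L of Pc28Gi17 was thus the mean of arrays that ran in opposite directions. At 24 h replicates 1 to 5 gave -0.78, -1.44, -0.96, -0.81 and -2.03 on array a and 1.24, 1.11, 1.36, 1.20 and 0.54 on array b. At 30 h they gave -0.30, 0.18, -0.70, -0.48 and -2.15 on array a and 1.41, 1.02, 0.55, 1.41 and -0.06 on array b. The difference of -1.92 between the arrays in L was larger in size than in all but a few probes (percentile 99.96, median size over all probes 0.15). The split was present at 18 h too, where array a gave 0.32, 0.65, 0.16, -0.44 and -1.19 and array b -0.46, 0.49, 1.22, 1.70 and 1.32, but not at 12 h, where the means of arrays a and b were 0.52 and 0.43. On array a alone 44 probes met the limits and Pc33Hm03 was the only member among them, and on array b alone 21 probes met them and no member did. Over all pairs the Cy5 channel of Pc28Gi17 minus its Cy3 channel was -0.25 ± 0.55, against 0.05 ± 0.29 in Pc33Hm03 and -0.03 ± 0.26 in Pc34Hg17. The part of the dyes in the differentials of Pc28Gi17 was not tested.

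**Figure D4:**
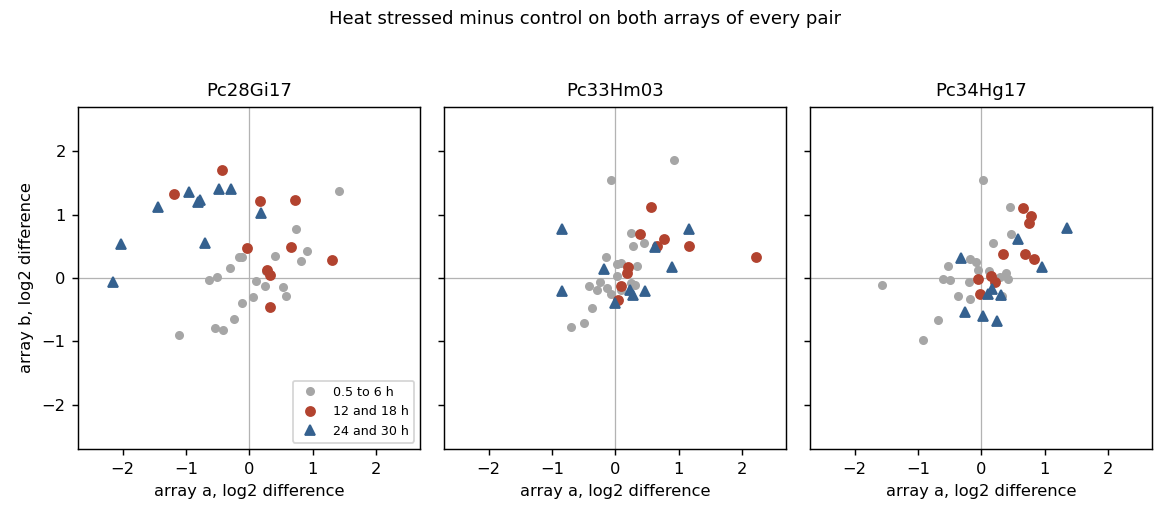
Differential of heat stressed minus control (log2) on array b (vertical axis) against array a (horizontal axis) for the 3 members, 1 point per pair, coloured by time. The pairs at 24 and 30 h of Pc28Gi17 lay in the upper left, with array a at -2.15 to 0.18 and array b at -0.06 to 1.41, while the arrays correlated over all pairs in Pc33Hm03 (r of 0.44) and Pc34Hg17 (0.51).

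The membership itself depended on the processing and on single pairs. Pc28Gi17 was lost with medians over pairs (8 probes met the limits) and without the pairs of conflicting labels (2 probes), and Pc34Hg17 was lost when channels were centred on their medians (2 probes). Left out 1 at a time, 22 of the 29 pairs at 1, 2, 12, 18, 24 and 30 h could be removed with all 3 members kept. Pc33Hm03 met the limits without any 1 of the 29 pairs, Pc28Gi17 in 26 of the 29 cases and Pc34Hg17 in 24. Pc28Gi17 was lost without 12 h replicate 1, 12 h replicate 5 or 18 h replicate 3. Pc34Hg17 was lost without replicate 3, 4 or 5 at 12 h or replicate 1 or 4 at 18 h. Without 1 pair between 2 and 8 probes met the limits.

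Between pairs, 2 of the members moved together. After the mean of each time point was removed, the differentials of Pc33Hm03 and Pc34Hg17 correlated with r of 0.72 over the 41 pairs, and with 0.42 over the 12 pairs at 0.5, 4 and 6 h alone. Those of Pc28Gi17 and Pc34Hg17 had r of -0.41, with -0.54 over the 12 pairs, and those of Pc28Gi17 and Pc33Hm03 had r of -0.058. Over all pairs of probes the median r was -0.003, and 1.36% had r of at least 0.7. The points share their arrays and crabs, so these values are descriptions.

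The probes most like each member by this measure were named after their values were seen. Pc34Hg17 had 32 probes with r of at least 0.9 and 197 with at least 0.8, led by Pc17Pc09 (r of 0.98), Pc17Pf02 (0.95) and Pc24Cc23 (0.94). The window means of Pc17Pc09 were -0.07, 0.33 and 0.14 for E, M and L, close to the -0.042, 0.40 and 0.13 of Pc34Hg17, and M was 0.29 in Pc17Pf02 and 0.26 in Pc24Cc23. The 197 probes lay on 32 plates of the clone library, and 187 of them had M above 0. The limits on shape were met by 40 of the 197, against 2122 of all 13818 probes. The median E, M and L of the 197 were 0.019, 0.12 and 0.12, against -0.0031, 0.010 and 0.015 over all probes. L was thus as high as M in this set, which as a whole did not share the shape of Pc34Hg17. The highest M among the 197 was 0.38. Pc34Hg17 was thus the highest in M of a broad set of probes that varied together between pairs, and M at 0.4 separated it from that set.

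Pc33Hm03 had 211 probes with r of at least 0.7 and 16 with at least 0.8, none with 0.9. Its nearest were Pc31Hi03 (r of 0.87, M of 0.29), Pc21Gh11 (0.87, M of 0.35) and Pc23Pp04 (0.84, M of 0.19). Pc28Gi17 had 57 probes with r of at least 0.7 and 2 with at least 0.8. These were Pc32Ha16 (r of 0.85, M of 0.27) and Pc34Hj08 (0.83, M of 0.28), followed by Pc34Hm23 (0.80, M of -0.21). All 3 showed the same opposition of arrays as Pc28Gi17 in L, with -0.70 and 1.02, -0.67 and 0.85, and -0.51 and 0.56 on arrays a and b.

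**Figure D5:**
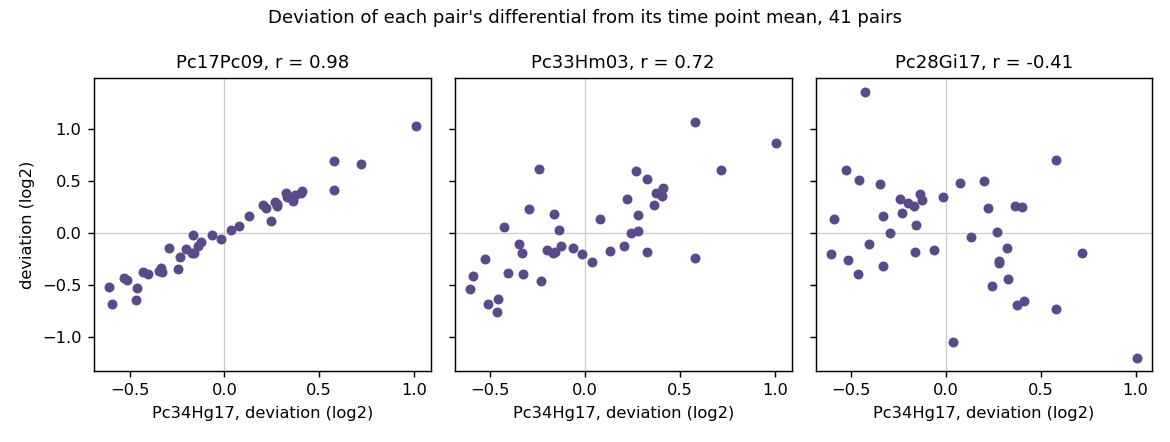
Deviation of each pair's differential from the mean of its time point (log2) for Pc17Pc09, Pc33Hm03 and Pc28Gi17 (vertical axes) against the same deviation of Pc34Hg17 (horizontal axes), 41 pairs each. Pc17Pc09 followed Pc34Hg17 closely (r of 0.98), Pc33Hm03 followed it more loosely (0.72) and Pc28Gi17 ran against it (-0.41).

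The members came from plates 28, 33 and 34, and the probes beside them on the plate had lower M. Over all probes the median M was 0.010 and M reached 0.4 in 87 of 13818, so a low M is usual for any probe. The 4 neighbours of Pc28Gi17 had M between -0.08 and 0.06, those of Pc33Hm03 between 0.03 and 0.11 and those of Pc34Hg17 between 0.0051 and 0.07. Of the neighbours, Pc33Hm02 varied with Pc33Hm03 (r of 0.69) and Pc34Hg16 varied against Pc34Hg17 (-0.62).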

How the data were processed

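For 13818 probes the authors deposited log2 intensities, already processed, with 1 value in each channel. The scale was taken as log2 because channel maxima lay between 15.1 and 16.6. The scanner, background correction and normalization are not given in the sources used here, and unequal channel medians enter levels more than differentials. Each crab's 2 channels were averaged and pair differentials were tested in R 4.3.3 with lmFit and eBayes of limma 3.58.1 (41 pairs in 9 time points, the pair as block, Benjamini-Hochberg over all probes, adjusted p under 0.05). The pairing comes from the shared arrays, and once group means were removed, paired crabs correlated over probes in 41 of 41 pairs (r of 0.44 to 0.94, median 0.75). Other steps used Python 3.11.15, numpy 2.4.6 and pandas 2.3.3. This fit was tested on simulated data. The members, lists and tests were chosen with earlier results of these data known. By rule, the members, called members, the extremes at 0.5, 4 and 6 h and probes beside the limits were named, with the 3 most similar probes to each member and its plate neighbours added after their values were seen. Alternatives covered the summary over pairs, normalization, single arrays, dim probes, eBayes with trend and robust, the replicate block, conflicting labels and each pair left out.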

Additional observations from a re-analysis of the deposited data

Results flagged for a closer look

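Pc34Hg17 had 1 pair at 30 h far from its 4 companions, replicate 5. Its differential was 1.07, while the others were -0.40, -0.29, -0.08 and -0.0030, and its gap to the nearest was 0.73 of the range (limit 0.71 for 5 pairs). It was above 0 on both arrays, at 1.35 and 0.79, and array b of that pair carries conflicting labels. Of 24 groups of pairs examined this was the only one past the limit, and chance alone gives about 1 in 20.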

How the results depend on the processing

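The limits of the choice were met by 8 probes with medians over pairs, 44 on array a alone, 21 on array b alone and 2 to 8 without 1 pair, against 3. No member was called at 0.5, 4 or 6 h, for 4 and 6 h averaged or for 18 h minus 12 h under any alternative (lowest adjusted p 0.67 in limma), whereas counts over all probes moved. Without the replicate block (unpaired), limma called 16, 14, 26, 15 and 17 probes at 1, 2, 18, 24 and 30 h, against 92, 59, 80, 84 and 222 with it. Array a alone gave 1, 9, 1, 183, 159 and 122 calls at 4, 6, 12, 18, 24 and 30 h, and array b alone 3, 9, 8, 4, 19, 1080 and 170 at 0.5, 1, 2, 6, 12, 18 and 24 h. At 12 h, where 7 probes were called, the count was 1 after centring, after loess and with trend and robust, and 15 without the dimmest 25% of probes. Trend and robust gave 32 calls at 2 h and 44 at 24 h, and quantile normalization 1 at 0.5 h and 40 at 24 h. Without the pairs of conflicting labels, which leaves 1 pair at 4 h assumed to vary like the others, there were 49, 0 and 33 calls at 4, 12 and 24 h and 12 for 4 and 6 h averaged. With the description's treatment in 3 pairs there were 3 at 6 h and 15 at 12 h. Without 1 pair of the same time point the counts were 0 to 35 at 0.5 h, 8 to 62 at 1 h, 0 to 39 at 2 h, 2 to 11 at 4 h, 0 to 71 at 6 h, 0 to 1 at 12 h, 38 to 75 at 18 h, 27 to 118 at 24 h, 101 to 222 at 30 h, 0 to 3 for 4 and 6 h averaged and 0 to 1 for 18 h minus 12 h, and the highest at 0.5 and 6 h came without 0.5 h replicate 5 (35) and 6 h replicate 1 (71). Pairs of other time points also moved the counts, as 115, 101, 33 and 99 probes were called at 1, 2, 12 and 18 h without 6 h replicate 1, and 106, 92, 23 and 117 without 0.5 h replicate 5. The median over members at 4 h was -0.13 on array a, -0.28 without conflicting pairs and -0.26 by description, and without 1 pair it was -0.16 to 0.13, with -0.03 to 0.07 at 0.5 h and 0.02 to 0.16 at 6 h. Signs reversed on array b in Pc28Gi17 at 0.5 h (-0.17), at 6 h (-0.0038) and for 18 h minus 12 h (0.43), and in Pc34Hg17 at 0.5 h (0.13) and for 4 and 6 h averaged (0.019). On array a Pc33Hm03 reversed at 4 h (-0.13) and for 4 and 6 h averaged (-0.042). Without conflicting pairs Pc33Hm03 gave -0.28 at 4 h, -0.20 at 6 h and -0.24 for their average, and Pc28Gi17 -0.31 at 6 h, -0.061 for the average and 0.11 for 18 h minus 12 h. By description Pc33Hm03 gave -0.35, -0.24 and -0.30, and Pc28Gi17 -0.35 at 6 h and -0.17 for the average. Without 1 pair Pc28Gi17 ran from -0.056 to 0.19 at 0.5 h, -0.0021 to 0.13 at 4 h, -0.42 to 0.38 at 6 h, -0.18 to 0.22 for the average and -0.17 to 0.029 for 18 h minus 12 h. Pc33Hm03 ran from -0.028 to 0.075, -0.16 to 0.34, -0.10 to 0.14 and -0.060 to 0.19 at 0.5 h, 4 h, 6 h and for the average, and Pc34Hg17 from -0.072 to 0.062 at 0.5 h, -0.41 to 0.052 at 4 h and -0.12 to 0.11 for the average. The cause of these changes was not tested. With 3 to 5 pairs per time point, a lack of calls does not show a lack of change. At 12 h Pc33Hm03 had 0.67 with a standard error of 0.20 and Pc34Hg17 had 0.60 with 0.19, and neither was called. The choice used 12 h and so favours high values there, and nothing is read from these 2 differences.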
